A study of Homo sapiens with 16 samples.

Results

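The noncoding genes SNHG1, SNHG5, SNHG6, SNHG7, SNHG8, SNHG12, SNHG15, SNHG16, GAS5 and ZFAS1 carry small nucleolar RNAs (snoRNAs) in their introns, and their levels were followed through a knock-down of the deubiquitinase USP7 in T-cell acute lymphoblastic leukemia (T-ALL) lines. They were taken by symbol from the count table and make up 10 of its 57820 genes. Each symbol matched 1 Ensembl identifier. All 10 passed the filter on low counts, so that every one was tested.

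Ribosome-depleted total RNA was sequenced from 16 libraries of Jurkat and HSB2, which are both human T-ALL lines labelled TAL1+ in genotype. Each line gave 4 groups of 2 libraries. The controls were wild-type cells, for which no treatment is labelled, and cells given a scrambled sequence (called siRNA in the labels), and the knock-down groups carried either of the USP7 hairpins shRNA-4057 and shRNA-4058. By the study's methods, hairpins were delivered by lentivirus and transduced cells were sorted for GFP or selected with puromycin. The labels do not say whether the libraries of a group came from separate cultures, so p-values measure only the spread between these libraries, which may be technical. In bulk RNA, fewer cells that express a gene and less RNA per cell cannot be told apart.

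A snoRNA host gene is transcribed and spliced, and its snoRNAs are trimmed out of the excised introns. Box C/D snoRNAs guide 2′-O-methylation and box H/ACA snoRNAs guide pseudouridylation of ribosomal RNA. Many spliced hosts begin with a pyrimidine tract like that of ribosomal protein mRNAs (the 5′ terminal oligopyrimidine, or TOP, motif), are bound by ribosomes over short reading frames and are then removed by nonsense-mediated decay.

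Libraries held between 76602847 and 235467749 counts in all, and the members between 1545 and 51929 counts per library. USP7 stood at 396 and 386 CPM (counts scaled to a common library size, here by TMM, the trimmed mean of M-values) in the Jurkat wild-type libraries, 384 and 387 in the scrambled libraries, 140.0 and 145 with shRNA-4057 and 244 and 242 with shRNA-4058. In HSB2 the USP7 levels were 237 and 243, 227 and 220.1, 144 and 149, and 162 and 156 CPM in the same order of groups. The hairpin libraries lay below both controls in both lines, as labelled. All 8 T-lineage markers averaged at least 1 CPM in both lines, although CD2 reached only 4.96 CPM in HSB2, while all 4 myeloid and all 4 erythroid markers averaged below 1 CPM. The B-lineage marker CD79A was present at 21.5 to 64.3 CPM in Jurkat, where its part in the results was not tested.

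The bases around the annotated start are shown for the 8 members with a RefSeq promoter entry (GRCh38.p14), because the pyrimidine tract at the start is the feature by which hosts resemble ribosomal protein genes. Each sequence gives 30 bases before and 30 bases from the start, 5′ to 3′, on the strand of the gene. Capitals mark the longest run of 5 or more C or T within 10 bases of the start.
SNHG1: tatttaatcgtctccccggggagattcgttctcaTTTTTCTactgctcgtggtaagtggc
SNHG5: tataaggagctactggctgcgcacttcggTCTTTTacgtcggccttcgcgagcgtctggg
SNHG7: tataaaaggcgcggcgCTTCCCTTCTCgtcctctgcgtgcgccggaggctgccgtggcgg
SNHG8: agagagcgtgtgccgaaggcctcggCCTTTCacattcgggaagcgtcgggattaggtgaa
SNHG12: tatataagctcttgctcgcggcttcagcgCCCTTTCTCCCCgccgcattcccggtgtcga
SNHG16: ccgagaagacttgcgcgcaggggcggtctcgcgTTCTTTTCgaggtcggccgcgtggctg
GAS5: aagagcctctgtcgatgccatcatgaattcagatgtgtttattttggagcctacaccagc
ZFAS1: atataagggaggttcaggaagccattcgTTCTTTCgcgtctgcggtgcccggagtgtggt

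GAS5 was the entry without such a run, and the share of all promoters with one is not given here. The SNHG7 run ends before the start, and those of SNHG1 and SNHG16 begin after it, so these do not begin the transcript. All of this holds for the RefSeq start used here, and other starts of these genes were not examined. The annotated base at the start was a C followed by 4 or more C or T in 3 of the 8 members (SNHG5, SNHG12 and ZFAS1), as in 4.07% of the 35116 RefSeq promoters. In the 300 bases from 250 before to 50 after the start, searched on both strands, CACGTG was found in 1 of 8 members (SNHG7) and in 7.26% of all promoters. CANNTG, which includes CACGTG and is the general E-box read by E proteins and TAL1, was found in 6 of 8 members and in 68.7% of all promoters. TGANTCA, an AP-1 type site, was found in 0 of 8 members and in 7.71% of all promoters. These are matches of letters in the window and not measured binding.

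**Figure D1:**
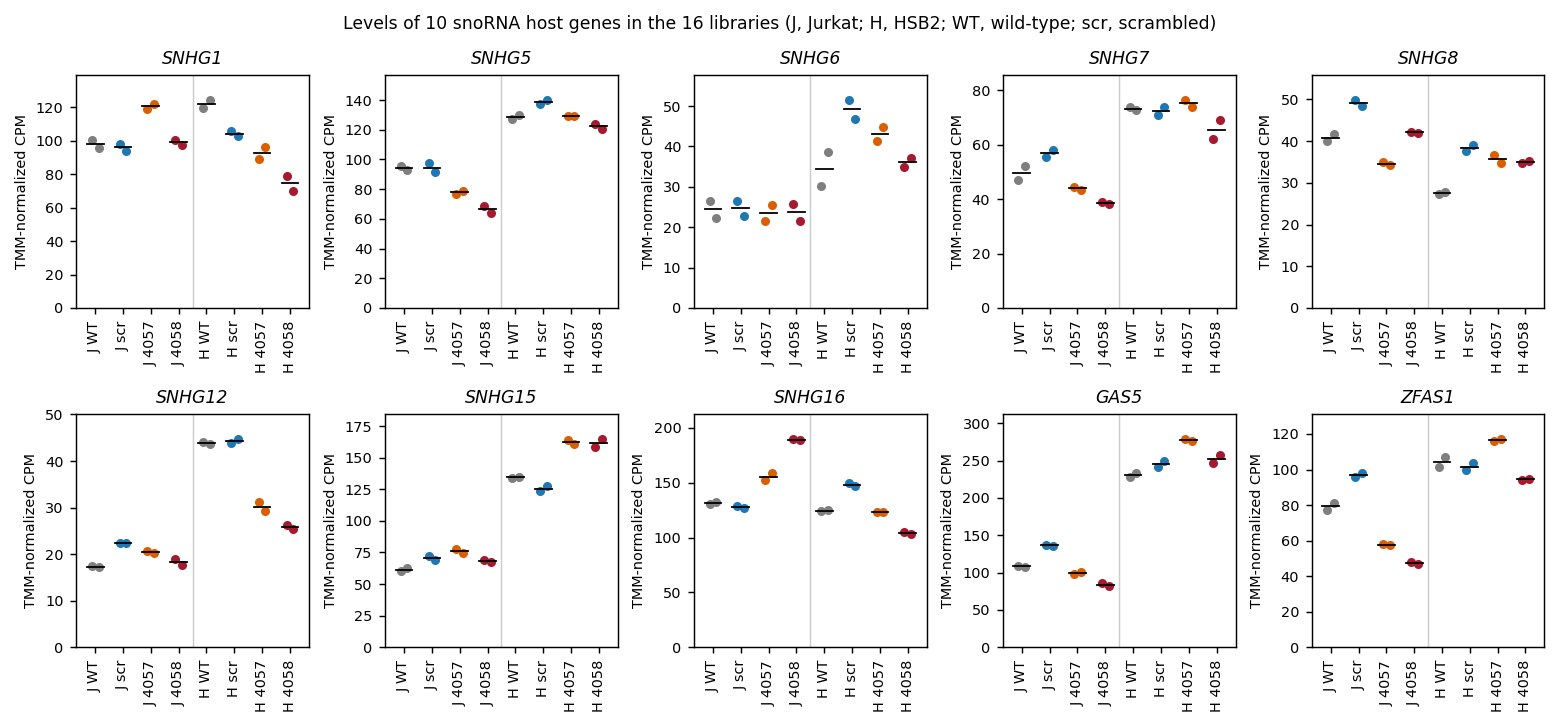
TMM-normalized CPM of the 10 host genes (vertical axes, from 0) in the 16 libraries, by group (horizontal axes; points, libraries; lines, means of 2). ZFAS1 falls from 96.0 and 98.1 in the Jurkat scrambled libraries to 48.05 and 46.8 with shRNA-4058, while GAS5 stays between 241 and 279 in the HSB2 scrambled and hairpin libraries.

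Before any knock-down, 9 of the 10 members were lower in Jurkat than in HSB2 controls, and the remaining one, SNHG8, was higher (means of scrambled and wild-type, adjusted p under 0.05 for all 10). All genes tested gave 38.8% higher and 38.6% lower. SNHG12 differed most, at 17.3 ± 0.15 and 22.4 ± 0.06 CPM (SD, n = 2) in the Jurkat wild-type and scrambled groups against 43.9 ± 0.17 and 44.3 ± 0.65 in those of HSB2, a log2 difference of -1.17 ± 0.04 (SE). SNHG15, at -0.98, and GAS5, at -0.97, were lower in Jurkat by nearly as much on the log2 scale. The SNHG16 difference was -0.07 ± 0.02 with overlapping libraries, and its sign turned under upper-quartile scaling. It was not called without the second Jurkat scrambled, the first HSB2 wild-type or the first HSB2 scrambled library.

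The summed level of the 10 members was 775.6 ± 12.2 CPM (SD, n = 2) in the Jurkat scrambled group and 705.1 ± 0.79 in Jurkat wild-type. It was 709.3 ± 7.84 with shRNA-4057 and 676.9 ± 15.9 with shRNA-4058. In HSB2 the sum was 1068 ± 10.6 in the scrambled, 1023 ± 18.6 in the wild-type, 1086 ± 0.68 in the shRNA-4057 and 971.7 ± 8.02 in the shRNA-4058 group. Per kilobase of merged exons, GAS5 led in both scrambled groups (27.6 and 49.8 CPM per kb in Jurkat and HSB2), and SNHG12 and SNHG8 were last in Jurkat and HSB2, at 5.24 and 5.80. With the length of the canonical transcript, SNHG16 came first in Jurkat at 257 CPM per kb and SNHG8 came last in both lines, so the order of levels between genes rests on the transcript model.

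In Jurkat, 5 members (ZFAS1, GAS5, SNHG7, SNHG5 and SNHG8) fell with both hairpins and 1 member (SNHG16) rose with both. Of all 23063 genes tested, 19.2% fell and 12.8% rose with both hairpins, which share the scrambled libraries. With shRNA-4057, 5 members were lower and 3 higher, against 27.3% lower and 22.7% higher among all genes. With shRNA-4058, 6 were lower and 1 higher, against 26.7% and 19.7%. Upper-quartile scaling moved the split over all genes from 5231 higher and 6296 lower to 6495 and 5028 with shRNA-4057, and from 4551 and 6167 to 5862 and 4927 with shRNA-4058, while the same 5 members remained lower and SNHG16 higher with both, and SNHG1 was then also called higher with shRNA-4058 (0.13). The median log2 fold change of the 10 members was -0.20 with shRNA-4057 and -0.26 with shRNA-4058, beside medians over all genes of 0.00 and -0.01.

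ZFAS1, which hosts the SNORD12 family of box C/D snoRNAs, was read at 96.0 and 98.1 CPM in the scrambled libraries, 57.9 and 57.6 with shRNA-4057 and 48.05 and 46.8 with shRNA-4058. Its groups did not overlap, and the wild-type libraries, at 77.4 and 81.1, lay between the scrambled and hairpin libraries. The log2 fold changes were -0.75 ± 0.04 (SE, adjusted p = 2.84e-13) and -1.03 ± 0.04 (adjusted p = 1.70e-15), or 0.595 and 0.489 times the scrambled level. Against wild-type cells they were -0.46 and -0.74, both still called.

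GAS5 hosts a long series of box C/D snoRNAs and encodes a spliced RNA known to accumulate when growth stops. It had 137 and 135 CPM in the scrambled libraries, 98.6 and 100.2 with shRNA-4057 and 85.7 and 81.9 with shRNA-4058. Both hairpins lay below the scrambled libraries, and also below the wild-type values of 109 and 108. Log2 fold changes were -0.46 ± 0.04 (adjusted p = 2.45e-10) and -0.70 ± 0.04 (adjusted p = 1.73e-13). The first shrank to -0.12 against wild-type cells (adjusted p = 0.00934), and the scrambled libraries themselves stood above wild-type.

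SNHG7, host of the SNORA17 pair of H/ACA snoRNAs, had 55.4 and 58.2 CPM in the scrambled, 44.5 and 43.5 in the shRNA-4057 and 39.0 and 38.4 in the shRNA-4058 libraries. SNHG5, host of the SNORD50 pair, had 97.4 and 91.7, then 76.6 and 79.0, then 68.9 and 63.9 CPM in the same groups. For both genes all hairpin libraries lay below all scrambled and wild-type libraries. The log2 fold changes of SNHG7 were -0.37 ± 0.05 and -0.55 ± 0.05, and those of SNHG5 were -0.28 ± 0.04 and -0.51 ± 0.04.

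SNHG8, host of the H/ACA snoRNA SNORA24, showed the opposite order of hairpins. It had 49.97 and 48.3 CPM in the scrambled libraries, 35.0 and 34.2 with shRNA-4057 and 42.2 and 42.0 with shRNA-4058. Its log2 fold changes were -0.50 ± 0.05 and -0.22 ± 0.05. Against the wild-type libraries, at 40.1 and 41.7 CPM, shRNA-4058 gave 0.04 (adjusted p = 0.518), so that fall depends on the control.

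SNHG16, host of the SNORD1 family, was the member that rose with both hairpins in Jurkat. It had 129 and 127 CPM in the scrambled, 152 and 158 in the shRNA-4057 and 189.9 and 189 in the shRNA-4058 libraries. The wild-type libraries, at 131 and 132, were close to the scrambled ones, and neither overlapped the hairpin libraries. The log2 fold changes were 0.28 ± 0.03 (adjusted p = 3.04e-07) and 0.57 ± 0.03 (adjusted p = 3.00e-12), and 0.24 and 0.52 against wild-type.

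SNHG1, which hosts a run of box C/D snoRNAs, rose with shRNA-4057, from 98.1 and 94.1 to 119 and 122 CPM, a log2 fold change of 0.33 ± 0.05. With shRNA-4058 it read 101 and 97.4 CPM (0.04 ± 0.05, adjusted p = 0.523), and the hairpins differed by 0.28 ± 0.05 on the log2 scale. SNHG12, host of SNORD99 and several H/ACA snoRNAs, fell with shRNA-4058 by 0.29 on the log2 scale, from 22.3 and 22.4 to 18.9 and 17.7 CPM. Its shRNA-4057 value was -0.13 ± 0.05 (adjusted p = 0.0518), and against the wild-type libraries, at 17.4 and 17.2 CPM, both hairpins gave positive values, 0.24 and 0.08, of which the first was called.

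SNHG15, host of SNORA9, read 72.1 and 69.4 CPM in the Jurkat scrambled libraries and 77.4 and 74.4 with shRNA-4057, a rise of 0.10 ± 0.04 on the log2 scale (adjusted p = 0.0351) that was not called without the second scrambled or the first shRNA-4057 library. With shRNA-4058 the value was -0.05 ± 0.04 (adjusted p = 0.314) against scrambled and 0.16, called, against wild-type. SNHG6, host of SNORD87, ranged from 21.5 to 26.5 CPM over all 8 Jurkat libraries, with log2 fold changes of -0.07 ± 0.11 and -0.06 ± 0.11 that were not called (adjusted p = 0.613 and 0.678). Its libraries overlapped between the groups.

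**Figure D2:**
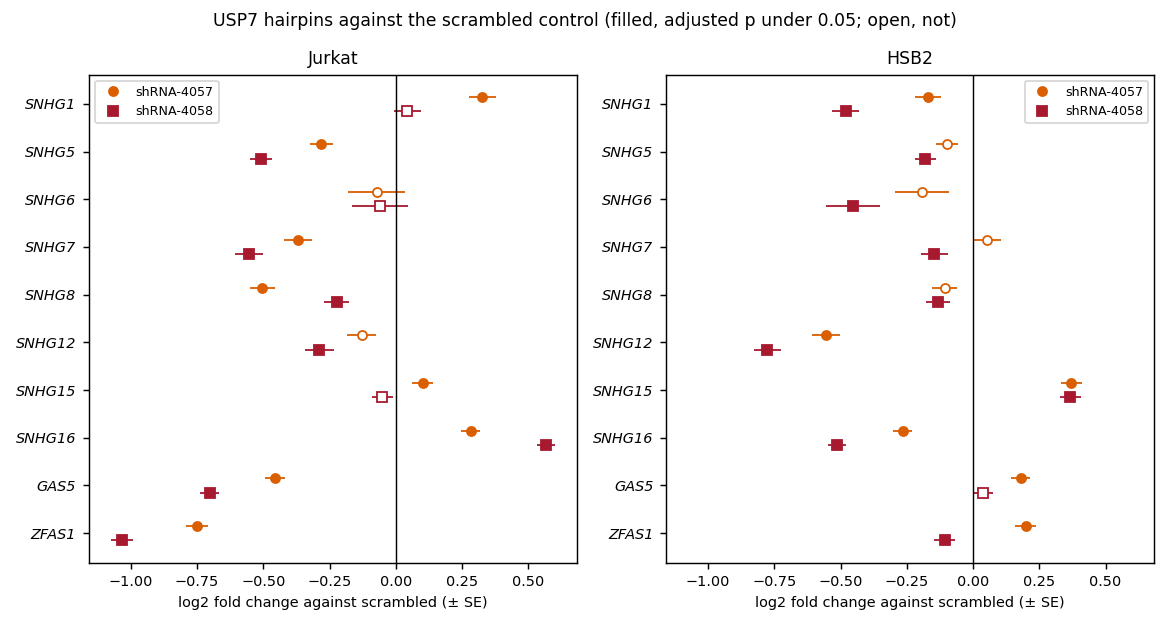
Log2 fold changes (horizontal axes, bars ± SE) of each hairpin against the scrambled libraries in Jurkat (left) and HSB2 (right), by gene. In Jurkat ZFAS1 stands furthest left, at -0.75 and -1.03, and SNHG16 furthest right with shRNA-4058, at 0.57, while in HSB2 SNHG12 stands furthest left, at -0.55 and -0.78.

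The hairpins themselves differed in Jurkat for 9 of the 10 members, 7 higher and 2 lower with shRNA-4057 than with shRNA-4058, where all genes gave 17.7% and 16.2%. The differences ran from -0.28 (SNHG8 and SNHG16) to 0.28 (SNHG1 and ZFAS1) on the log2 scale, and SNHG6 was not called. The difference for SNHG7, 0.18, went to -0.03 under an offset for GC content and length. Without the first shRNA-4057 library SNHG7, SNHG12 and SNHG15 were not called. USP7 itself was lower with shRNA-4057 than with shRNA-4058. Of the 5 members that fell with both hairpins, SNHG8 was also lower with shRNA-4057, and ZFAS1, GAS5, SNHG5 and SNHG7 were lower with shRNA-4058. A link to the level of USP7 was not tested.

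With the hairpins treated as replicates of 1 knock-down group, 5 members were called in Jurkat: ZFAS1 (-0.86 ± 0.10), GAS5 (-0.55 ± 0.09), SNHG7 (-0.44 ± 0.08) and SNHG5 (-0.37 ± 0.09) were lower, and SNHG16 (0.46 ± 0.11) was higher. All genes gave 15.7% lower and 12.4% higher, a split that upper-quartile scaling moved from 2633 higher and 3332 lower to 3323 and 2747. SNHG8, at -0.33 ± 0.11, had an adjusted p of 0.0508. In either line this test treats all hairpin libraries as independent replicates, although libraries of the same hairpin are not independent of each other. ZFAS1 alone was called without either scrambled library or with wild-type cells as the control.

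The members varied together in part. Over the 8 Jurkat libraries, log2 CPM of ZFAS1 and SNHG7 had a Pearson r of 0.98 and that of ZFAS1 and GAS5 0.96, while SNHG16 ran against SNHG5 (-0.97) and ZFAS1 (-0.96). Over the 8 HSB2 libraries SNHG5 and SNHG16, opposed in Jurkat, had an r of 0.97, and SNHG12 and SNHG15 one of -0.94. Of the 45 pairs, 17 had a negative r in Jurkat and 14 in HSB2, with medians of 0.18 and 0.30. These values describe 8 libraries of 4 groups that share the same conditions and scaling.

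In HSB2, 3 members (SNHG12, SNHG16 and SNHG1) fell with both hairpins and 1 (SNHG15) rose with both, where all genes gave 16.7% and 18.5%. With shRNA-4057, 3 members were lower and 3 higher, against 21.7% lower and 21.9% higher among all genes. With shRNA-4058, 8 were lower and 1 was higher, against 26.2% and 26.6%. With RLE size factors and with DESeq2, 5 members were lower and 2 higher with shRNA-4058 (SNHG7, SNHG8 and ZFAS1 were not called and GAS5 was), and RLE size factors gave 6972 higher and 5180 lower genes in all. Leaving out the second scrambled or either shRNA-4058 library gave 5 lower and 1 higher. The member medians were -0.10 and -0.16 on the log2 scale, beside medians over all genes of -0.02 and -0.01.

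SNHG12 had 43.8 and 44.8 CPM in the HSB2 scrambled libraries, 31.2 and 29.2 with shRNA-4057 and 26.3 and 25.4 with shRNA-4058. All 4 hairpin libraries lay below the scrambled and wild-type libraries, and the wild-type values, 43.98 and 43.7, were next to the scrambled ones. The log2 fold changes were -0.55 ± 0.05 (adjusted p = 3.31e-09) and -0.78 ± 0.05 (adjusted p = 6.45e-12), or 0.681 and 0.584 times the scrambled level. Against wild-type they were -0.54 and -0.76.

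SNHG16, which rose in Jurkat, fell in HSB2 from 150.0 and 147 CPM in the scrambled libraries to 123 and 124 with shRNA-4057 and 105 and 103 with shRNA-4058. Fold changes on the log2 scale were -0.27 ± 0.03 and -0.51 ± 0.03. The shRNA-4057 libraries were at the wild-type level of 124 and 125 CPM, and the log2 fold change against that control was -0.01 (adjusted p = 0.821), whereas shRNA-4058 kept -0.26.

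SNHG1 had 106 and 103 CPM in the HSB2 scrambled libraries, 88.8 and 96.5 with shRNA-4057 and 79.2 and 69.8 with shRNA-4058, below the 119.5 and 125 of wild-type cells. Its log2 fold changes were -0.17 ± 0.05 and -0.48 ± 0.05, and -0.40 and -0.71 against wild-type. The first was not called without the first scrambled or the first shRNA-4057 library. SNHG15 had 123 and 127 CPM in the scrambled, 164 and 161 in the shRNA-4057 and 159 and 165 in the shRNA-4058 libraries. All hairpin libraries of SNHG15 lay above all controls, with log2 fold changes of 0.37 ± 0.04 for both hairpins.

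SNHG6 fell with shRNA-4058 in HSB2, from 51.6 and 46.9 to 35.0 and 37.1 CPM (-0.45 ± 0.10), and stood at 41.3 and 44.8 with shRNA-4057 (-0.19 ± 0.10, adjusted p = 0.130). The wild-type libraries, at 30.2 and 38.5 CPM, were the furthest apart of any group for SNHG6 and below the scrambled ones. Against them the values turned to 0.34 and 0.08, of which the first was called. SNHG8 behaved likewise, with -0.11 and -0.13 against scrambled (the second called) and 0.37 and 0.34, both called, against wild-type.

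GAS5 rose with shRNA-4057 in HSB2, from 241 and 249.96 to 279 and 277 CPM (0.18 ± 0.04), and read 247 and 258 with shRNA-4058 (0.04 ± 0.04, adjusted p = 0.374). ZFAS1 rose with shRNA-4057, from 99.5 and 104 to 116 and 117 CPM (0.20 ± 0.04), and fell with shRNA-4058 to 94.3 and 94.5 (-0.11 ± 0.04). SNHG5 and SNHG7 fell with shRNA-4058, by 0.18 and by 0.15 on the log2 scale, and gave -0.10 and 0.05 with shRNA-4057, not called. With shRNA-4058, ZFAS1 and SNHG8 were called without the first scrambled library but not without any other single library, and SNHG5 and SNHG7 each lost the call without at least 1 library.

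The HSB2 hairpins differed for 6 members, all 6 higher with shRNA-4057 and none lower, where all genes gave 10.5% higher and 14.3% lower. The differences were 0.14 to 0.31 on the log2 scale, with ZFAS1 (0.31 ± 0.04) and SNHG1 (0.31 ± 0.05) the largest of the 10 members. SNHG15 did not differ detectably, at 0.00 ± 0.04. Without the first shRNA-4057 library, 3 members (SNHG16, SNHG1 and ZFAS1) remained called. The offset for GC content and length moved the split over all genes from 2418 higher and 3298 lower to 3845 and 2956.

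With the hairpins as 1 group, SNHG12 (-0.66 ± 0.09), SNHG16 (-0.38 ± 0.09) and SNHG6 (-0.31 ± 0.10) were lower and SNHG15 (0.37 ± 0.05) was higher in HSB2, beside 17.8% lower and 20.3% higher among all genes. Without either scrambled library, SNHG12 and SNHG15 remained called. SNHG6 was not called with the replicate block, with both controls together or under the GC and length offset, which called GAS5 higher. The offset gave 3597 higher and 4415 lower genes in all. With wild-type cells as the control, SNHG12, SNHG15, SNHG1 and SNHG8 were called, and SNHG8 then stood at 0.35, on the other side of 0.

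The controls were compared to see how far the same genes differed without a USP7 hairpin. The scrambled sequence, its delivery and any sorting or selection cannot be told apart in this comparison. In Jurkat 6 members were higher in scrambled than in wild-type cells and 0 lower, where all genes gave 14.8% and 11.0%. Upper-quartile scaling moved the split over all genes from 3420 higher and 2544 lower to 2912 and 3065, with the same 6 members called. These were SNHG12 (0.37 ± 0.05), GAS5 (0.33 ± 0.04), ZFAS1 (0.29 ± 0.04), SNHG8 (0.27 ± 0.05), SNHG15 (0.21 ± 0.04) and SNHG7 (0.19 ± 0.05), the last not called without the first wild-type or the second scrambled library, or under the GC and length offset. The other members, SNHG1, SNHG5, SNHG6 and SNHG16, lay between -0.04 and 0.01. For GAS5, ZFAS1, SNHG7 and SNHG8 the difference between scrambled and wild-type cells had the opposite sign to the fall with both hairpins. For SNHG12 that difference had the opposite sign to the fall with shRNA-4058. The falls were measured against these same scrambled libraries.

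In HSB2, 5 members were higher and 2 lower in scrambled than in wild-type cells, where all genes gave 16.1% and 17.9%. SNHG6 (0.53 ± 0.10), SNHG8 (0.48 ± 0.05) and SNHG16 (0.25 ± 0.03) were higher, as were SNHG5 (0.11) and GAS5 (0.09) by less. SNHG1 (-0.23 ± 0.05) and SNHG15 (-0.10 ± 0.04) were lower. Only SNHG6, SNHG8, SNHG16 and SNHG1 remained called without either wild-type library, without the second scrambled library or with all genes of at least 1 count. The offset for GC content and length moved the split over all genes from 3723 higher and 4134 lower to 5081 and 3513.

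**Figure D3:**
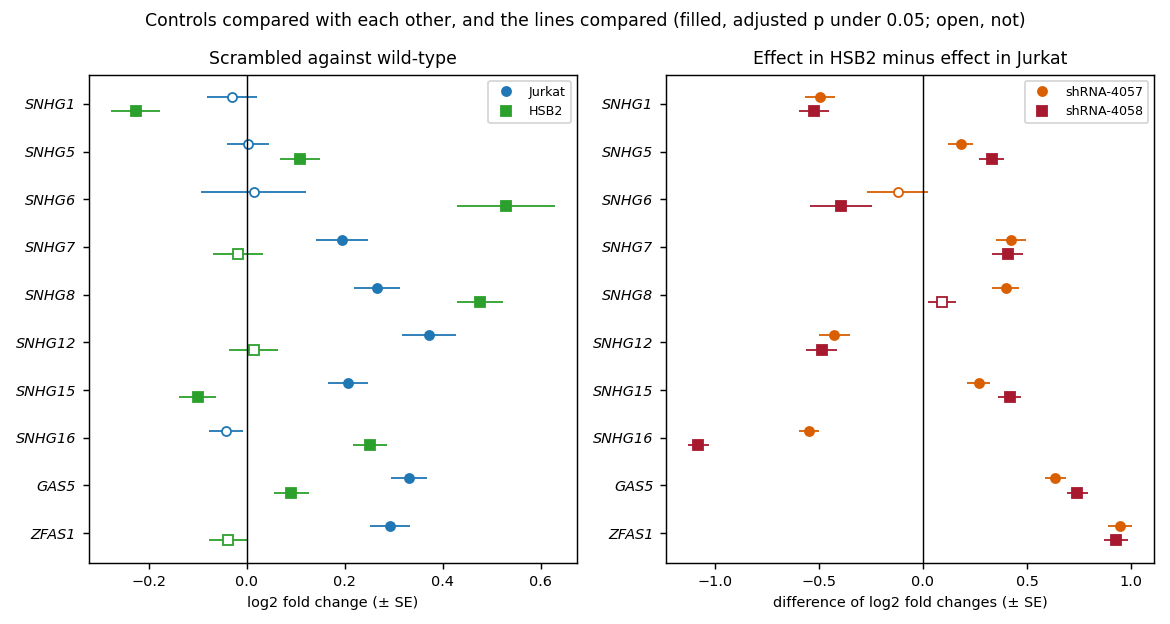
Log2 differences (horizontal axes, bars ± SE) of the 10 host genes between scrambled and wild-type cells (left) and between the effect of a hairpin in HSB2 and in Jurkat (right). SNHG8 is above 0 in both lines on the left, at 0.27 and 0.48, and ZFAS1 is furthest right on the right, at 0.95 and 0.93, with SNHG16 furthest left, at -0.55 and -1.08.

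The effect of the same hairpin was tested between the lines. For shRNA-4057, 9 of the 10 members differed, 6 with a higher value in HSB2 and 3 with a lower one, where all genes gave 24.9% and 21.8%. For shRNA-4058, 9 differed as well, 5 higher and 4 lower, against 29.6% and 26.0%. Among the higher members, SNHG7 went from 0.41 to -0.24 (adjusted p = 7.44e-04) under the GC and length offset. Among the lower ones, SNHG6 (-0.39) lost its call under that offset. Over all genes that offset gave 6268 higher and 6483 lower, and upper-quartile scaling 5984 and 6918. ZFAS1 differed by 0.95 ± 0.06 and 0.93 ± 0.06 on the log2 scale and GAS5 by 0.64 ± 0.05 and 0.74 ± 0.05, in both cases with the lower value in Jurkat. SNHG16 differed by -0.55 ± 0.05 and -1.08 ± 0.05, since it rose in Jurkat and fell in HSB2 with both hairpins.

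With shRNA-4057, SNHG1, SNHG16, GAS5 and ZFAS1 were called in opposite directions in the lines. With shRNA-4058 this held for SNHG16. The share of all genes called in opposite directions is not given here, so this is no trait particular to the members. SNHG1 and SNHG12 had the lower value in HSB2 with both hairpins, SNHG12 by -0.43 ± 0.07 and -0.49 ± 0.07. SNHG6 with shRNA-4057 (-0.12 ± 0.15, adjusted p = 0.543) and SNHG8 with shRNA-4058 (0.09 ± 0.07, adjusted p = 0.248) were not called. SNHG5 with shRNA-4057 and SNHG6 with shRNA-4058 lost the call when single libraries were left out.

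Of the snoRNAs inside the members, 6 had counts of their own and were matched by identifier, all box C/D. They are shown because they give a second readout of the same loci. The sequences are from GRCh37, the build of the files, on the strand of the host, with the boxes TGATGA (box C) and CTGA (box D) in capitals where they were found within 20 bases of an end. The positions are chr20:47895477-47895565, chr20:47896856-47896946 and chr20:47897220-47897309 on the plus strand for SNORD12C, SNORD12B and SNORD12 in ZFAS1, chr1:173834760-173834824 on the minus strand for SNORD78 in GAS5, chr1:28905261-28905334 on the minus strand for SNORD99 in SNHG12, and chr17:74557191-74557274 on the plus strand for SNORD1B in SNHG16.
SNORD12C: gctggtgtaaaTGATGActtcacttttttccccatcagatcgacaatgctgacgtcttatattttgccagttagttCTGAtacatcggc
SNORD12B: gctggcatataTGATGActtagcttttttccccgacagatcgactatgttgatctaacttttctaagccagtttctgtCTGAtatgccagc
SNORD12: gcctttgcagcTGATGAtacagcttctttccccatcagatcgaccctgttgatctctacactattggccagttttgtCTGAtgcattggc
SNORD78: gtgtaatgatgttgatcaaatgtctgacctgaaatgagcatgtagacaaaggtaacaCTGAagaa
SNORD99: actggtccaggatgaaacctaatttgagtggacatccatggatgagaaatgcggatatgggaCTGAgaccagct
SNORD1B: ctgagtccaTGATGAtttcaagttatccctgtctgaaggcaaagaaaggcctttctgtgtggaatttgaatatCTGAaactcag

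The 3 SNORD12 snoRNAs were higher with both hairpins in Jurkat, where their host was lower, and SNORD12B alone kept the call with both hairpins under an offset for GC content and length. SNORD12C had 113 and 115 counts in the scrambled libraries, 257 and 244 with shRNA-4057 and 339 and 285 with shRNA-4058, or 1.23 and 1.22, 2.26 and 2.37, and 2.67 and 2.42 CPM. All hairpin libraries lay above the scrambled and wild-type ones, while those of ZFAS1 lay below. The log2 fold changes of SNORD12C were 0.92 ± 0.15 and 1.06 ± 0.14, those of SNORD12B 1.34 ± 0.22 and 1.64 ± 0.21, and those of SNORD12 0.78 ± 0.16 and 1.05 ± 0.16, all called without that offset. Per 1000 counts of ZFAS1, SNORD12C went from 12.8 and 12.4 counts in scrambled libraries to 39.0 and 41.2 with shRNA-4057 and 55.6 and 51.6 with shRNA-4058.

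In HSB2 the same snoRNAs were lower with both hairpins, except SNORD12 with shRNA-4057, which was not called. SNORD12B had 3.01 and 2.65 CPM in the scrambled, 1.74 and 1.63 in the shRNA-4057 and 1.29 and 1.07 in the shRNA-4058 libraries, with log2 fold changes of -0.75 ± 0.18 and -1.23 ± 0.18. SNORD12C changed by -0.40 ± 0.13 and -0.71 ± 0.13, while SNORD12 gave -0.25 ± 0.14 (adjusted p = 0.163) and -0.68 ± 0.14. Without the offset, the effects differed between the lines for all 3 and both hairpins, by -1.03 to -2.87 on the log2 scale.

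Over the 6 snoRNAs, 3 were called higher in Jurkat with shRNA-4057 and 5 with shRNA-4058, and none lower. In HSB2, 2 were lower with shRNA-4057 and all 6 with shRNA-4058. Over all genes, 22.7% and 19.7% were higher in Jurkat with these hairpins, and 21.7% and 26.2% lower in HSB2. Under the GC and length offset, the snoRNA counts became 1 (SNORD12B) and 2 (SNORD12 and SNORD12B) higher in Jurkat. In HSB2 they became 1 lower (SNORD12B) with each hairpin. SNORD78 in GAS5 read 0.629 and 0.539 CPM in the Jurkat scrambled libraries and 1.25 and 0.822 with shRNA-4058, a log2 fold change of 0.83 ± 0.26 that became -0.10, not called, with the offset. SNORD1B in SNHG16 rested on 4 and 4 counts in the Jurkat scrambled libraries. SNORD99 in SNHG12 was not called in Jurkat, and with shRNA-4058 in HSB2 it changed by -0.73 ± 0.25, or by -0.17 (adjusted p = 0.604) with the offset.

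Other snoRNA genes were counted as well. Among 274 annotated snoRNA and small Cajal body RNA genes tested, the median log2 fold change in Jurkat was 0.51 with shRNA-4057 and 0.64 with shRNA-4058, with 54 and 68 higher and 26 and 31 lower. In HSB2 the medians were -0.19 and -0.50, with 13 and 14 higher and 26 and 61 lower. Over all genes in Jurkat, 22.7% were higher and 27.3% lower with shRNA-4057, and 19.7% and 26.7% with shRNA-4058. The shares over all genes in HSB2 were 21.9% and 21.7%, and 26.6% and 26.2%. With an offset for GC content and length, SNORD12C came to 0.34 and 0.31 in Jurkat and to -0.09 and -0.02 in HSB2, none called. SNORD12 came to 0.25 (adjusted p = 0.244) and 0.41, the second called, in Jurkat and to -0.05 and -0.16, not called, in HSB2. SNORD12B kept 0.77 and 0.90, and -0.44 and -0.55, all called. Reads of unspliced host RNA and of the mature snoRNA cannot be told apart in these counts. SNORD12B, SNORD12 and SNORD78 also overlap annotated exons of their hosts, so reads of spliced host RNA could be shared with them.

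**Figure D4:**
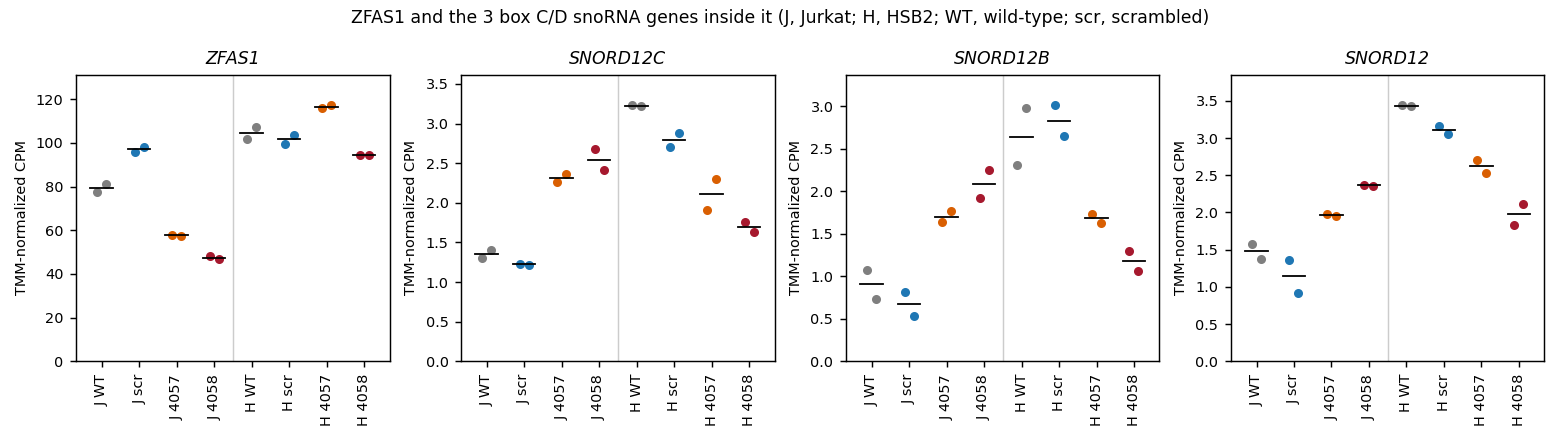
TMM-normalized CPM (vertical axes, from 0) of ZFAS1 and of the 3 snoRNA genes inside it, by group (points, libraries; lines, means of 2). In Jurkat the hairpin libraries are the lowest for ZFAS1 and the highest for SNORD12C, whose scrambled libraries stand at 1.23 and 1.22 and whose shRNA-4058 libraries stand at 2.67 and 2.42.

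Several members overlap genes on the other strand in their exons, and the strand setting of the counting is not given in the sources used here, so reads of such pairs could be shared. ZNFX1, which overlaps ZFAS1 over 249 bases, rose by 0.41 and 0.25 on the log2 scale with the Jurkat hairpins and by 0.33 with each in HSB2, the opposite of ZFAS1 in Jurkat. DIPK1B, which overlaps SNHG7 over 1482 bases and reached at most 32.2 CPM, changed by -0.34 and -0.37 in Jurkat, close to SNHG7 with shRNA-4057, and by -0.95 and -0.73 in HSB2. PRSS12 and MCMDC2, which overlap SNHG8 and SNHG6, did not exceed 0.317 and 0.0946 CPM in any library. The pseudogene PKMP3, on the strand of SNHG5, did not exceed 0.582 CPM.

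Other genes of the pathway were counted from lists that do not hold the members, without recounting under other scalings. The shares to set beside all list counts are those over all genes given above, 22.7% higher and 27.3% lower in Jurkat with shRNA-4057, 19.7% and 26.7% with shRNA-4058, and in HSB2 21.9% and 21.7%, and 26.6% and 26.2%. In Jurkat, upper-quartile scaling turned the split over all genes to more higher than lower calls with both hairpins. In HSB2 with shRNA-4058, RLE size factors moved 6131 higher and 6046 lower genes to 6972 and 5180. The offset for GC content and length gave 5459 and 6857. With shRNA-4057 in HSB2 these settings moved 5052 and 4994 to 5636 and 4437, and to 4849 and 5634. Of 13 other noncoding snoRNA hosts tested, 4 were higher and 4 lower with shRNA-4057 in Jurkat and 3 higher and 4 lower with shRNA-4058. In HSB2 1 was higher with each hairpin, and 8 and 11 were lower, with medians of -0.42 and -0.44 on the log2 scale beside -0.02 and -0.01 over all genes. SNHG29 had 615 ± 2.59 CPM (SD, n = 2) in the Jurkat scrambled group and fell by 1.03 and by 1.07 on the log2 scale, and SNHG32 fell by 0.58 and by 0.76. SNHG25 fell by 0.56 and by 0.51 in Jurkat and by 0.81 and by 0.62 in HSB2, where SNHG19 fell by 0.86 and by 0.90 and SNHG20 by 0.64 and by 0.80.

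Of 19 protein-coding hosts, 5 were higher and 9 lower with shRNA-4057 in Jurkat and 9 and 7 with shRNA-4058, and in HSB2 4 were higher with each and 8 and 10 lower. Their medians were -0.06 and 0.02 in Jurkat and -0.04 and -0.11 in HSB2, beside 0.00, -0.01, -0.02 and -0.01 over all genes. EEF1B2, a translation elongation factor subunit, fell by 0.98 and by 0.84 on the log2 scale in Jurkat, and the ribosomal scaffold RACK1 by 0.50 and by 0.57. EIF4A1, a translation initiation helicase that shares exons with an annotated read-through from SENP3 and is therefore uncertain, rose by 1.09 and 0.56. In HSB2 TAF1D, a subunit of the RNA polymerase I factor SL1, fell by 0.45 and by 0.61, and EEF2 (0.30 and 0.29) and PRRC2A (0.26 and 0.33) rose. With shRNA-4058 the GC and length offset brought EEF2 to -0.0438 and PRRC2A to -0.0136, neither called.

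The snoRNP proteins bind and stabilize snoRNAs. Of 15 core and assembly factors, 3 were higher and 8 lower with shRNA-4057 in Jurkat, but 9 higher and 4 lower with shRNA-4058, with medians of -0.12 and 0.21 beside 0.00 and -0.01 over all genes. NOP58, a core protein of box C/D particles, rose by 0.42 and 0.70 on the log2 scale in Jurkat, GAR1 of H/ACA particles by 0.38 and 0.71, and the assembly factor NUFIP1 by 0.32 and 0.54. In HSB2, 0 were higher and 13 lower with shRNA-4057 and 1 higher and 11 lower with shRNA-4058, with medians of -0.30 and -0.29 beside -0.02 and -0.01 over all genes. NOP58 fell there by 0.37 and by 0.59, GAR1 by 0.47 and by 0.51, and NOLC1, a nucleolar chaperone of snoRNPs, by 0.59 with each hairpin.

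The list of TOP mRNAs and their regulators, which shares EEF1B2 and EEF2 with the protein-coding hosts, had 20 genes tested. With shRNA-4057 in Jurkat 3 were higher and 16 lower, and with shRNA-4058 4 were higher and 15 lower. The medians were -0.38 and -0.37 on the log2 scale, beside 0.00 and -0.01 over all genes. TPT1, a TOP mRNA, fell by 0.74 and by 0.87, and EIF4EBP1, a translational repressor under mTOR, fell by 0.96 and by 0.55. In HSB2, 7 were higher with each hairpin and 5 and 8 lower, with medians of 0.05 and -0.03. EIF3F rose there by 0.30 and 0.31, and EIF4EBP1 fell by 0.37 and by 0.48.

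Of 13 nonsense-mediated decay factors, 8 were higher and 2 lower with shRNA-4057 in Jurkat and 6 and 3 with shRNA-4058, with medians of 0.29 and 0.09 beside 0.00 and -0.01 over all genes. UPF2 rose by 0.52 with each hairpin and UPF3B by 0.36 and 0.39, while SMG8 fell by 0.33 and by 0.48. In HSB2, 3 were higher with each hairpin and 4 and 9 lower, with medians of -0.03 and -0.17 beside -0.02 and -0.01. The helicase UPF1 fell there by 0.22 and by 0.32 and its kinase SMG1 by 0.24 and by 0.54, and the endonuclease SMG6 rose by 0.64 and 0.42.

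The genes whose pattern was most like the mean of the members, among 8920 other genes of at least 10 CPM in each line, were UBE2E1, PPARA, IPMK, CALU and PSMD10, with Pearson r of 0.96, 0.95, 0.94, 0.94 and 0.94 over the 16 libraries after centring on each line. The members themselves had r from -0.27 (SNHG15) and -0.11 (SNHG16) to 0.82 (SNHG7) with that mean. The mean thus stood for some of the members and not for SNHG15 and SNHG16.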

How the data were processed

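RNA-seq libraries of total, ribosome-depleted RNA (KAPA RNA HyperPrep with RiboErase, stranded) were aligned and counted by the authors. The submitters' processing notes name CASAVA, STAR, BWA and HTSeq (0.6.1p1) and the build hg19, with the annotation release and strand setting not given in the sources used here. The deposited values were raw counts per Ensembl gene. They totalled 76602847 to 235467749 per library, and no interval is given, because the model's errors cover counting error. Of 57820 identifiers, 55538 matched a symbol. Groups came from the labels.

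Counts were scaled by TMM and tested with edgeR (4.0.16, R 4.3.3) by the quasi-likelihood F-test after filterByExpr, with Benjamini-Hochberg adjustment over all genes and a threshold of 0.05. All 16 libraries were fitted as 8 groups (23063 genes). For the comparison of both hairpins together, 6 libraries of a line were fitted (21288 genes in Jurkat and 21113 in HSB2). SE is the log2 fold change over the root of F. The code was tested on simulated data. Lengths came from GENCODE for GRCh37, a release that may differ from the authors'. Alternatives were other scalings, filters and controls, DESeq2 (1.42.0), an offset for GC content and length, a replicate block and leaving out each library.

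All 10 members are named. Of each other list, the 3 genes with the largest absolute mean log2 fold change among those called in 1 direction with both hairpins of a line are named. Likeness was ranked by Pearson r, as stated with its result. Members and lists were chosen with earlier results of these data known. Same-numbered libraries did not deviate together (correlations of -0.05 to 0.05). Some genes that overlap members are not reported here.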

Additional observations from a re-analysis of the deposited data

Results flagged for a closer look

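A test of the difference between the lines picked out the following host genes, each value being the log2 effect of a hairpin in HSB2 minus that in Jurkat (edgeR, adjusted p under 0.05 over all genes). With shRNA-4057 the differences were -0.50 for SNHG1, 0.18 for SNHG5, 0.42 for SNHG7, 0.40 for SNHG8, -0.43 for SNHG12, 0.27 for SNHG15, -0.55 for SNHG16, 0.64 for GAS5 and 0.95 for ZFAS1. With shRNA-4058 they were -0.52 for SNHG1, 0.33 for SNHG5, -0.39 for SNHG6, 0.41 for SNHG7, -0.49 for SNHG12, 0.42 for SNHG15, -1.08 for SNHG16, 0.74 for GAS5 and 0.93 for ZFAS1. The SNHG7 difference with shRNA-4058 turned to -0.24 with an offset for GC content and length. The hairpins share the scrambled libraries of each line, so both sets of values rest on the same controls. Groups of 2 libraries are too small for a search for single libraries far from the others.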

How the results depend on the processing

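The counts of members called moved by more than 1.5 times in 4 comparisons. Over all genes, both hairpins in Jurkat gave 2633 higher and 3332 lower of 21288. With wild-type cells as the control these became 663 and 1135 of 21381, and with separate hairpins 5131 and 6706 of 23063. In HSB2, 4282 and 3767 of 21113 became 5864 and 6213 of 23063 with separate hairpins. HSB2 scrambled against wild-type gave 3723 and 4134 of 23063, then 3430 and 4127 of 39330 with all genes of at least 1 count. The replicate block gave 3569 and 3964. For both hairpins against scrambled in Jurkat, 5 members became 1 with wild-type cells as the control and 8 with the hairpins as separate groups, and leaving out 1 library gave 1 to 6. In HSB2, 4 members became 8 with separate hairpins, and leaving out 1 library gave 2 to 5. For the hairpins against each other in HSB2, leaving out 1 library gave 3 to 6. For HSB2 scrambled against wild-type, 7 members became 4 with all genes of at least 1 count and 4 with the replicate block, and leaving out 1 library gave 4 to 5. The replicate block moved no other count by this much, and library numbers mark no known pairing. With 1 library left in a group, that library is assumed to vary like the others.

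Direction turned with wild-type cells as the control, a setting added for single hairpins after the data were seen. In HSB2, SNHG6 and SNHG8 went to 0.20 and 0.35 for both hairpins, 0.34 and 0.37 for shRNA-4057 and 0.0756 and 0.34 for shRNA-4058, and TAF1D to 0.0317 for shRNA-4057. In Jurkat, SNHG12 went to 0.24 and 0.0837 for shRNA-4057 and shRNA-4058, and SNHG8 and SNHG15 to 0.0427 and 0.16 for shRNA-4058. The offset for GC content and length turned SNHG7 to -0.0292 between the Jurkat hairpins, 0.14 in HSB2 scrambled against wild-type and -0.24 in the difference between lines for shRNA-4058, and SNORD78 to -0.10 with shRNA-4058 in Jurkat. With shRNA-4058 in HSB2 it turned SNHG8 to 1e-04, EEF2 to -0.0438 and PRRC2A to -0.0136. Upper-quartile scaling turned SNHG16 between the lines' controls to 6e-04. The cause was not tested. For the members, 996 of 1090 values kept the side of the threshold and, where called, the direction under the other alternatives. The same held for 617 of 680 with 1 library left out. A change of sign between values that were not called was neither counted as a turn nor listed here. Transcript models limit levels per kilobase, and the small counts of snoRNAs limit theirs.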
